A study of Mus musculus with 20 samples.

Results

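The genes followed here are 10 genes of the ATF4 stress response in mouse regulatory T (Treg) cells: Atf4, Atf3, Atf5, Ddit3, Cebpb, Trib3, Asns, Sesn2, Ddit4 and Chac1. They were picked by gene symbol from the deposited expression table, which holds 21928 gene symbols in all, and a gene with several probe sets was represented by the one with the highest mean. Expression was measured on 20 arrays in 7 groups of CD4+YFP+CD44loCD62Lhi cells, which the labels call cTreg. The cells were sorted from the spleen and pLN of C57BL/6J Foxp3YFP-Cre mice, so every group, the DMSO controls included, carried the YFP reporter and the Cre recombinase driven by Foxp3. DMSO 0 h had 3 arrays, and its labels name no stimulation. The DMSO 18 h and DMSO 48 h groups, 3 arrays each, were stimulated in culture through CD3 and CD28, by antibodies at 10 ug/ml, beside 200 U/ml of IL-2. FTI 18 h, FTI 48 h and GGTI 48 h had 3 arrays each and GGTI 18 h had 2; these cells got the inhibitor for 2 h before that stimulation and during it, a step the labels do not name for DMSO. FTI and GGTI are the usual abbreviations of inhibitors of the farnesyl and geranylgeranyl transferases, enzymes that attach lipid anchors to small GTPases such as Ras. The compounds, their doses, the ages of the mice, and whether arrays were separate mice or pools are not stated in the labels. Per the title, the study is about protein prenylation in effector Treg cell differentiation. No unstimulated culture at 18 h or 48 h was among the groups, so time in culture and stimulation cannot be told apart.

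ATF4 is a bZIP transcription factor that is made mainly by translation control. When kinases such as PERK (Eif2ak3) or GCN2 (Eif2ak4) phosphorylate eIF2alpha, general protein synthesis falls while the Atf4 mRNA is translated better, and the mTORC1 pathway of growing cells also raises ATF4 protein. ATF4 then turns on genes of amino acid synthesis and uptake, and in prolonged stress the factor CHOP (Ddit3) and its partners. Dividing T cells need this amino acid supply. Arrays measure mRNA, so ATF4 protein and phosphorylated eIF2alpha were not measured here.

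Values are log2 expression as deposited, after RMA, which gives the probe intensities of all arrays 1 distribution before they are summarized per probe set. A level is therefore relative to the array, and RNA per cell was not measured. The deposited values do not share 1 distribution exactly, and their medians over all probe sets ran from 6.00 to 6.20 between arrays. In bulk samples such as these, fewer cells of a type and less RNA per cell cannot be told apart. Levels are compared between groups for 1 gene and never between genes. A gene was tested when, on 2 or more arrays, it exceeded the median of all probe sets of that array, which kept 12462 genes. Of the 10 genes 9 were kept, and Chac1 was not, being above the median on 1 array. Differences are log2 differences of group means ± SE from limma, and a gene is said to rise or fall where its adjusted p, over all 12462 genes of the comparison, was under 0.05. Every one of the 10 genes had a group mean above the median of the negative-control probe sets in all 7 groups. That background was higher at 0 h, where the array medians of the negative controls were 5.583 to 5.666 against 4.937 to 5.32 on the other arrays. The upper decile of the negative controls ran from 7.492 to 8.338 between arrays. Group means of Atf5, Cebpb, Ddit4 and Chac1 lay below 7.492 in all 7 groups. Those of Trib3 did so outside GGTI 48 h, and those of Atf3 and Sesn2 outside DMSO 48 h. Asns did so at 0 h and in GGTI 48 h, while Atf4 and Ddit3 lay above 8.338 in every group.

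The 6 Treg and T cell markers had group means above background in every group, apart from Il2ra at 0 h. Foxp3 averaged 10.67 to 11.20 over the 7 groups, and the mean of 6 Treg and T cell markers ran from 9.50 to 9.65 at 0 h and from 9.81 to 10.02 on the other arrays. Il2ra, the IL-2 receptor alpha chain, was below the negative-control median at 0 h, at 5.04. Of 8 myeloid markers, 5 lay at or below background in every group but GGTI 48 h, where 4 did, with Lyz2 and Csf1r among them throughout. The CD8 and NK markers Klrb1c, Klrd1 and Ncr1 lay at or below background in every group, while Cd8b1 averaged 7.93 to 8.71. Of 5 B cell markers, 4 lay at or below background at 0 h and 3 in DMSO 48 h and GGTI 48 h. In FTI 18 h and FTI 48 h 2 did, and in DMSO 18 h and GGTI 18 h 1 did. Of 3 red cell markers, 1 lay at or below background in GGTI 18 h and 0 in the other groups.

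Promoter sequences of 3 of the genes, from around their start sites, are shown because these 3 had the largest differences in the GGTI 48 h group and each holds a match to the core of the C/EBP-ATF response element, to which ATF4 binds as a dimer with a C/EBP protein. The letters searched were TGATGNAA on either strand, which read TTNCATCA on the opposite one, and the match is in capitals. Sequences are from RefSeq (GRCm38.p6), written 5′ to 3′ on the strand of the gene, for Asns and Atf3 the 250 bases before the start site and for Trib3 30 bases around the match, which lie after the start site. They come from chr6:7693210-7693459, minus strand, for Asns, from chr1:191183334-191183583, minus strand, for Atf3, and from chr2:152344028-152344057, minus strand, for Trib3.
Asns: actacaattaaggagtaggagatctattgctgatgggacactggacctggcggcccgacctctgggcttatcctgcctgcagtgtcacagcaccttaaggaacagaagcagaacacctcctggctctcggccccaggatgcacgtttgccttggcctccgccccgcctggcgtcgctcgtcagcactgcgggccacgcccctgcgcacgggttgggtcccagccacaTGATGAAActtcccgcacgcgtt
Atf3: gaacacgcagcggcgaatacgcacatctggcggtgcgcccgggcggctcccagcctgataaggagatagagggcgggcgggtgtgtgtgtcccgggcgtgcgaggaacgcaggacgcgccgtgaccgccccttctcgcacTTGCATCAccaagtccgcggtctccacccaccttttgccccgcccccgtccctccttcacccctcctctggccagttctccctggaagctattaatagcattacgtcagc
Trib3: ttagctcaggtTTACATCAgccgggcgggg
The match begins 23 bases before the start site of Asns, 110 bases before that of Atf3 and at base 15 after that of Trib3. Chac1 also had a match, beginning 193 bases before its start. No match stood in the 300-base windows, 250 bases before to 50 after the start, of Atf4, Atf5, Cebpb, Ddit3, Ddit4 or Sesn2. Of all 32851 RefSeq windows of this length 1304 held the letters, which is 3.97%. A match describes the letters and does not show that a factor binds there. As the values below show, Trib3 rose in GGTI 48 h while Asns and Atf3 fell, although all 3 windows hold the match.

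Atf4 itself was at a high level in every group, with means between 10.34 and 10.87. At 0 h its arrays read 11.24, 10.42 and 10.97, at DMSO 18 h 10.68, 10.49 and 10.54, and at DMSO 48 h 10.91, 10.69 and 10.97. The DMSO groups overlap, apart from 18 h and 48 h, whose nearest arrays read 10.68 and 10.69. Under FTI the arrays read 10.65, 10.42 and 10.61 at 18 h and 10.65, 10.50 and 10.68 at 48 h, and under GGTI 10.67 and 10.46 at 18 h and 10.45, 10.10 and 10.47 at 48 h. All 3 GGTI arrays of 48 h lay below the 3 DMSO arrays of that time, and no neighbours in the order of the 7 group means differed past the threshold.

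Atf3, a bZIP factor of the immediate stress response that is a transcriptional target of ATF4, varied more. At 0 h it read 7.77, 6.36 and 7.58, a group mean of 7.24 ± 0.766 (SD, n = 3), in which the second array stood far below the others. DMSO arrays read 7.33, 7.49 and 7.36 at 18 h and 8.03, 8.29 and 8.09 at 48 h, the highest of all groups. FTI arrays read 6.75, 7.07 and 7.17 at 18 h and 6.97, 7.28 and 6.76 at 48 h, below every DMSO array of the same time. GGTI arrays were lower again, at 6.39 and 6.40 at 18 h and 5.76, 6.09 and 6.04 at 48 h. The order of the means ran DMSO 48 h, DMSO 18 h, DMSO 0 h, FTI 48 h, FTI 18 h, GGTI 18 h and GGTI 48 h, and of these neighbours DMSO 48 h and DMSO 18 h alone differed past the threshold, by 0.74 (limma adjusted p = 0.0292, where 29.1% of all genes were called).

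Ddit3 encodes CHOP, a C/EBP-family factor induced by ATF4 that is linked to cell death in prolonged ER stress. It has 2 probe sets, and the brighter one, which the rule takes, has no genome position in its identifier. On it the 0 h arrays read 9.51, 9.43 and 9.54, those of DMSO 18 h 9.15, 9.17 and 9.13, and those of DMSO 48 h 8.59, 8.56 and 8.47, so that the 3 times did not overlap. GGTI arrays read 9.29 and 9.26 at 18 h and 8.97, 9.01 and 9.07 at 48 h, and FTI arrays 9.27, 9.10 and 9.26 at 18 h and 8.69, 8.42 and 8.64 at 48 h. The GGTI arrays of 48 h were all above the DMSO and FTI arrays of that time. In the order of means, DMSO 0 h, GGTI 18 h, FTI 18 h, DMSO 18 h, GGTI 48 h, FTI 48 h and DMSO 48 h, 2 neighbouring steps passed the threshold, the first at 0.22 (limma adjusted p = 0.0353) and that from GGTI 48 h to FTI 48 h at 0.43 (limma adjusted p = 0.00026). The other probe set, placed on chromosome 10, showed the fall between 0 h and 48 h too but differed elsewhere: its group means were 8.92 ± 0.063 at 0 h, 8.84 ± 0.106 at DMSO 18 h, 8.31 ± 0.11 at DMSO 48 h and 8.51 ± 0.098 at GGTI 48 h (SD, n = 3 each).

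**Figure D1:**
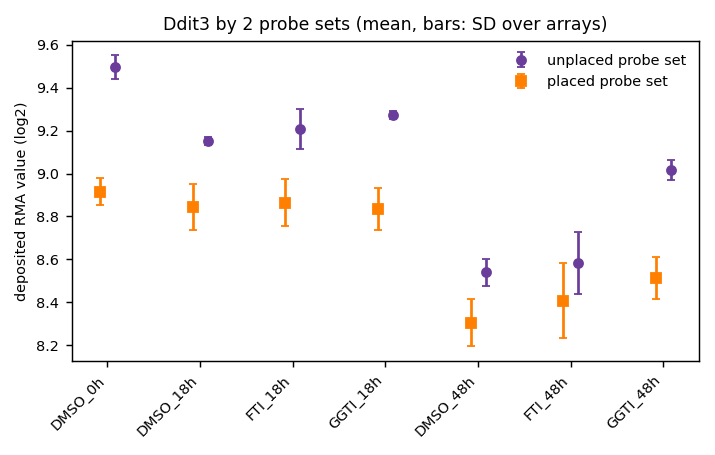
Deposited log2 value of Ddit3 by its 2 probe sets in the 7 groups, as the mean with the SD over arrays (n = 3, for GGTI 18 h n = 2). Both probe sets are lowest at DMSO 48 h, and the unplaced one stands further above it at GGTI 48 h (9.02 against 8.54) than the placed one (8.51 against 8.31).

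Atf5, a bZIP factor whose mRNA is translated under the same control as Atf4, and Cebpb, a C/EBP factor that can pair with ATF4, moved little. Over the 20 arrays Atf5 ran from 7.01 in FTI 18 h to 7.60 in GGTI 18 h, and its group means from 7.19 ± 0.105 in DMSO 48 h to 7.48 ± 0.17 in GGTI 18 h (SD, n = 3 and n = 2). Cebpb ran from 5.83 in GGTI 48 h to 6.64 at 0 h, and its group means from 6.11 ± 0.24 in GGTI 48 h to 6.49 ± 0.123 in DMSO 18 h (SD, n = 3 each). For neither gene did any neighbours in the order of the 7 means differ past the threshold. The group means of both genes lay below the upper decile of the negative controls, which limits what their small changes can show.

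Trib3, a pseudokinase that binds ATF4 and CHOP and dampens their action, set the GGTI 48 h group apart. At 0 h it read 6.45, 6.38 and 6.55, at DMSO 18 h 6.19, 6.05 and 6.16, and at DMSO 48 h 6.09, 6.01 and 5.86. FTI arrays overlapped the DMSO arrays of the same time, at 6.05, 6.26 and 6.12 at 18 h and 5.97, 5.92 and 5.98 at 48 h. GGTI arrays read 6.52 and 6.65 at 18 h and 7.72, 7.87 and 7.65 at 48 h. The lowest GGTI array of 48 h thus stood above every array of every other group, and in the order of means GGTI 48 h exceeded GGTI 18 h, the next, by 1.16 ± 0.094 (limma adjusted p = 8.93e-08), in a comparison that called 21.8% of all genes. GGTI 18 h and DMSO 0 h, the next pair, did not differ past the threshold, with a difference of 0.13 (limma adjusted p = 0.268).

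Asns, asparagine synthetase, is a classical ATF4 target of amino acid supply. It was low at 0 h, at 6.77, 6.53 and 6.82, and higher in DMSO 18 h, at 7.88, 8.07 and 8.47, and in DMSO 48 h, at 7.92, 8.51 and 8.24. FTI arrays read 7.80, 7.79 and 7.75 at 18 h and 7.81, 8.17 and 7.93 at 48 h, and GGTI arrays 7.57 and 7.76 at 18 h. In GGTI 48 h the arrays read 6.20, 6.82 and 6.87, overlapping the arrays of 0 h and below all others. The order of means has 1 step past the threshold, from GGTI 18 h down to DMSO 0 h, of 0.96 ± 0.198 (limma adjusted p = 0.000452, where 53.9% of all genes were called). DMSO 0 h and GGTI 48 h differed by 0.08 (limma adjusted p = 0.718, 95% interval of GGTI 48 h minus DMSO 0 h -0.45 to 0.30).

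Sesn2, sestrin 2, and Ddit4, also called REDD1, are stress-induced inhibitors of mTORC1. Sesn2 read 6.72, 6.93 and 7.14 at 0 h, 6.23, 6.05 and 6.22 at DMSO 18 h, and 7.84, 7.64 and 7.82 at DMSO 48 h. It was thus lowest of the DMSO groups at 18 h and highest at 48 h, with no overlap. At 18 h FTI arrays read 6.23, 6.29 and 6.05 and GGTI arrays 5.73 and 6.14, and at 48 h they read 6.64, 6.94 and 6.78 for FTI and 7.14, 7.25 and 6.65 for GGTI. All 6 inhibitor arrays of 48 h lay below the DMSO arrays of that time, and all 6 above the DMSO arrays of 18 h. The order of means ran DMSO 48 h, GGTI 48 h, DMSO 0 h, FTI 48 h, FTI 18 h, DMSO 18 h and GGTI 18 h, and besides the first step the step from FTI 48 h to FTI 18 h passed the threshold, at 0.60 ± 0.145 (limma adjusted p = 0.00737, where 16.6% of all genes were called).

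Ddit4 read 5.67, 6.19 and 6.31 at 0 h, 5.91, 6.20 and 6.17 at DMSO 18 h, and 6.62, 7.16 and 6.70 at DMSO 48 h. FTI arrays read 6.21, 6.46 and 6.23 at 18 h and 6.64, 6.63 and 6.55 at 48 h, and GGTI arrays 6.26 and 5.97 at 18 h and 6.17, 6.65 and 6.08 at 48 h. The second GGTI array of 48 h lay within the DMSO arrays of that time, so these groups overlap. In the order of means, DMSO 48 h, FTI 48 h, GGTI 48 h, FTI 18 h, GGTI 18 h, DMSO 18 h and DMSO 0 h, no neighbours differed past the threshold. Chac1, a glutathione-degrading enzyme induced by the ATF4, ATF3 and CHOP branch, stayed dim, between 5.45 in GGTI 48 h and 6.09 at 0 h over all arrays. In the fit without the filter it was called in none of 11 comparisons, with a smallest unadjusted p of 0.0655, and GGTI 48 h against DMSO 48 h gave -0.14 (limma adjusted p = 0.5, 95% interval -0.40 to 0.11).

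**Figure D2:**
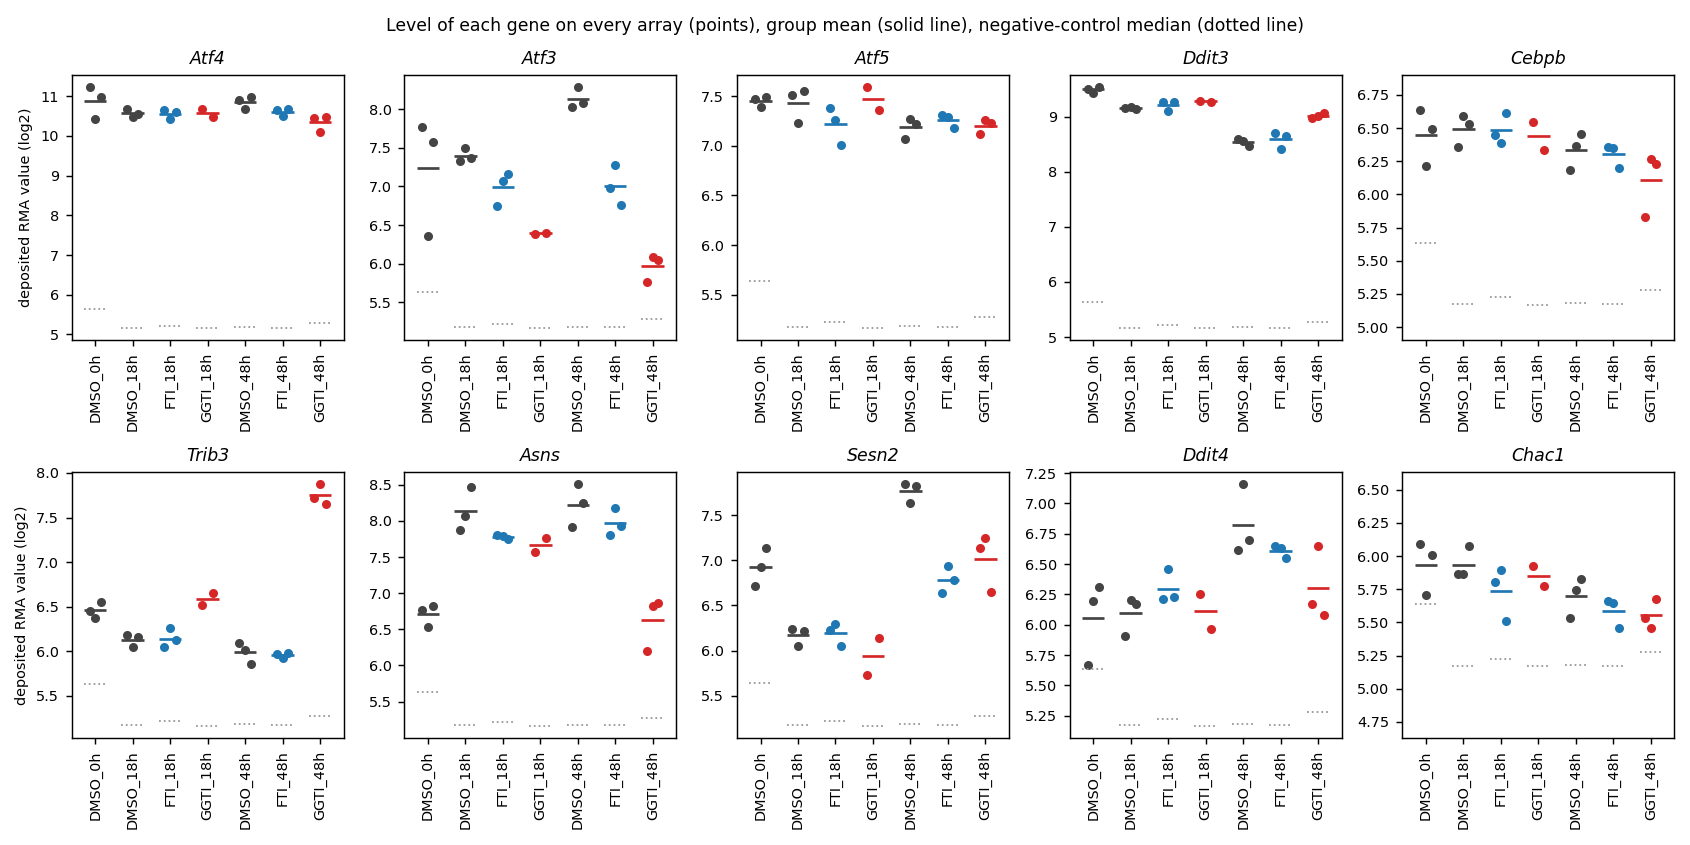
Deposited log2 value of each of the 10 genes on every array (points), with the mean of the group (line) and the mean of its negative-control medians (dotted line); each panel has its own vertical scale, which does not start at 0. Trib3 stands at 7.65 to 7.87 in GGTI 48 h against 5.86 to 6.09 in DMSO 48 h, while Atf3 and Asns are lower in GGTI 48 h.

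The first comparison asks what stimulated culture did without an inhibitor. Between 0 h and DMSO 18 h, Asns rose by 1.43 ± 0.177, a 2.70-fold increase (limma adjusted p = 1.11e-06), while Sesn2, Ddit3 and Trib3 fell. Sesn2 fell by 0.76 ± 0.145 (limma adjusted p = 0.000162), Trib3 by 0.33 ± 0.0841 (limma adjusted p = 0.00244) and Ddit3 by 0.34 ± 0.0761 (limma adjusted p = 0.000665). So 1 of 9 genes rose and 3 fell, in a comparison that called 60.9% of all genes, 33.7% higher and 27.2% lower. Atf4 differed by -0.30 (limma adjusted p = 0.0976). Without the second array of DMSO 0 h it passed, at -0.53 (limma adjusted p = 0.00146), and without that array and the third of DMSO 18 h, the pair of lowest array weight, it did so too, at -0.52 (limma adjusted p = 0.00492). The placed probe set of Ddit3 gave -0.07 (limma adjusted p = 0.532). Trib3 was dim, with means of 6.46 at 0 h and 6.13 at DMSO 18 h. The negative-control medians averaged 5.64 and 5.17 in these groups, and the part of this background in the Trib3 fall was not tested. Mean levels of markers of other cells also differed from 0 h. The mean of 8 myeloid markers ran from 6.23 to 6.34 at 0 h and from 5.73 to 5.98 on the other arrays. Of these 8, 5 lay at or below background at 0 h and at DMSO 18 h, and background was higher at 0 h. Of the 3 tested, Cd68 and Cd74 fell by 1.19 and 1.27 between these groups (limma adjusted p = 2.65e-08 and 4.66e-06). Cst3 rose by 0.60 (limma adjusted p = 1.1e-07). The mean of 3 red cell markers ran from 6.68 to 7.40 at 0 h and from 5.70 to 6.86 on the others. The part of these markers and of background in the differences from 0 h was not tested.

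Between 0 h and DMSO 48 h, 4 of the 9 genes rose and 3 fell, where 74.7% of all genes were called, 38.5% higher and 36.2% lower. Asns rose by 1.52 ± 0.177, or 2.86-fold (limma adjusted p = 4.01e-07). Atf3 rose by 0.90 ± 0.243 (limma adjusted p = 0.00275), Sesn2 by 0.84 ± 0.145 (limma adjusted p = 4.58e-05) and Ddit4 by 0.77 ± 0.173 (limma adjusted p = 0.000627). The inhibitors of mTORC1 thus stood above their 0 h level at the later time. Ddit3 fell by 0.95 ± 0.0761 (limma adjusted p = 2.14e-09), and its placed probe set by 0.61. Trib3 fell by 0.47 ± 0.0841 (limma adjusted p = 6.46e-05) and Atf5 by 0.27 ± 0.103 (limma adjusted p = 0.0261). The Trib3 means were 6.46 at 0 h and 5.99 at DMSO 48 h, where the negative-control medians averaged 5.64 and 5.18. The part of this background in the Trib3 fall was not tested. The Atf5 call was lost without the first or the third array of DMSO 0 h or the first of DMSO 48 h (limma adjusted p = 0.0598, 0.069 and 0.11), and with arrays centred on the median of all probe sets its difference was -0.09 (limma adjusted p = 0.404).

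From DMSO 18 h to DMSO 48 h, Sesn2 had the largest change of the 9 genes, a rise of 1.60 ± 0.145 or 3.03-fold (limma adjusted p = 2.46e-07). Ddit4 rose by 0.73 ± 0.173 (limma adjusted p = 0.00451) and Atf3 by 0.74 ± 0.243 (limma adjusted p = 0.0292), while Ddit3 fell by 0.61 ± 0.0761 (limma adjusted p = 1.06e-05). In all 3 of 9 genes rose and 1 fell, where 29.1% of all genes were called, 16.4% higher and 12.6% lower. Asns differed by 0.08 (limma adjusted p = 0.758, 95% interval -0.29 to 0.45). The Atf3 call was lost without the first or the third array of DMSO 18 h (limma adjusted p = 0.0813 and 0.0719) and without the second or the third of DMSO 48 h (limma adjusted p = 0.104 and 0.0568). Atf5 differed by -0.25 (limma adjusted p = 0.0823) and passed without the second array of DMSO 18 h, at -0.35 (limma adjusted p = 0.0203). Of the markers of other cells, Cd74 rose by 0.50 (limma adjusted p = 0.0405), while Cd79b fell by 0.68 (limma adjusted p = 0.0124) and Hba-a1 by 0.59 (limma adjusted p = 0.0202). The other tested members of these 3 marker lists were not called. Cst3 was at -0.11 and Cd68 at 0.04 (limma adjusted p = 0.175 and 0.807). Cd79a was at -0.45, Hbb-bt at -0.44 and Alas2 at -0.14 (limma adjusted p = 0.0626, 0.498 and 0.217). The part of these markers was not tested.

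**Figure D3:**
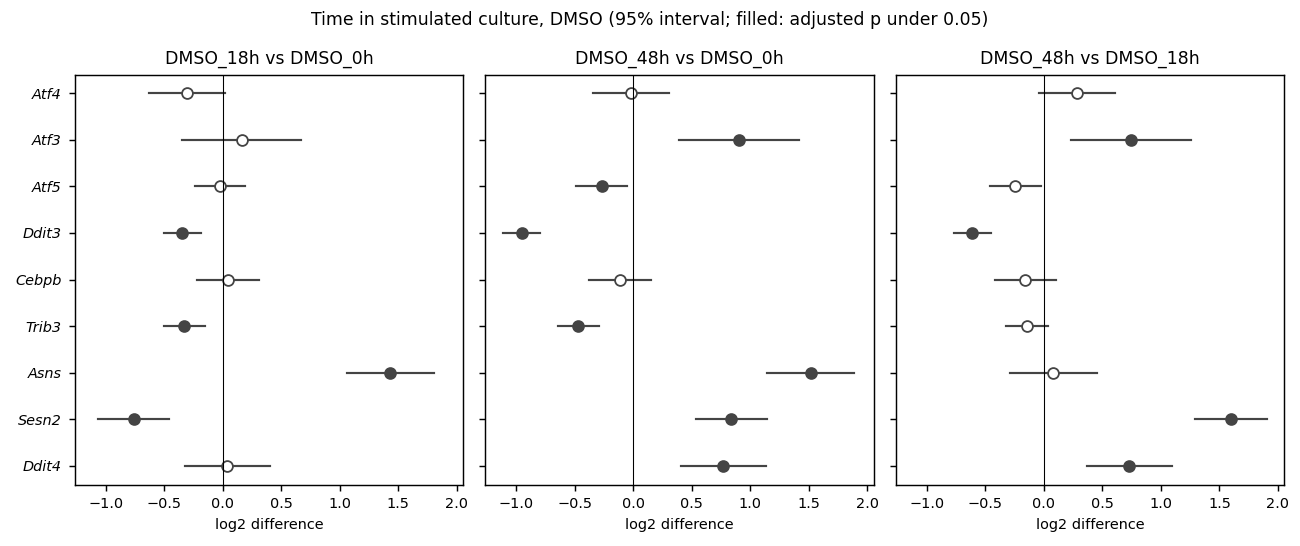
Log2 difference between DMSO groups for the 9 genes tested (points, 95% interval of the limma fit; filled where the adjusted p was under 0.05). Asns is higher at both times than at 0 h, by 1.43 and 1.52, and Sesn2 is 0.76 lower at 18 h and 0.84 higher at 48 h.

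The next comparisons ask what each inhibitor did beside DMSO of the same time. At 18 h with FTI, 0 of the 9 genes were called by limma and 0 had an unadjusted p under 0.05, where 3.30% of all genes were called, 2.62% higher and 0.682% lower. The differences ran from -0.40 for Atf3 (95% interval -0.91 to 0.11) to 0.20 for Ddit4 (95% interval -0.16 to 0.57). Cd68, a myeloid marker, was higher with FTI at 18 h by 0.45 (limma adjusted p = 0.031). No other tested marker of other cells was called there, and the part of Cd68 was not tested. At 18 h with GGTI, 1 of 9 rose and 1 fell, where 5.94% of all genes were called, 3.86% higher and 2.08% lower. Trib3 rose by 0.45 ± 0.094, or 1.37-fold (limma adjusted p = 0.00704), and Atf3 fell by 1.00 ± 0.272, or 2.00-fold (limma adjusted p = 0.035). Asns differed by -0.47 (limma adjusted p = 0.194). Both calls rest on 2 GGTI arrays. The Trib3 call was lost without the second GGTI 18 h array (limma adjusted p = 0.0876), and the Atf3 call without any 1 of the 5 arrays, where its adjusted p ran from 0.0575 to 0.227 and its difference from -1.04 to -0.96.

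At 48 h with FTI, 2 of the 9 genes fell and 0 rose, where 7.66% of all genes were called, 4.58% higher and 3.08% lower. Atf3 fell by 1.14 ± 0.243, or 2.20-fold (limma adjusted p = 0.00647), and Sesn2 by 0.98 ± 0.145, or 1.97-fold (limma adjusted p = 0.000241). Both genes had risen in DMSO between 18 h and 48 h, a comparison that shares the DMSO 48 h arrays. Trib3 differed by -0.03 (95% interval -0.21 to 0.15) and Asns by -0.25 (95% interval -0.62 to 0.12). Both calls held without any 1 of the 6 arrays. Cd74, a myeloid and B cell marker, was higher with FTI by 0.62 (limma adjusted p = 0.0377) and Cd8b1 by 0.38 (limma adjusted p = 0.0424), while Cd8a differed by -0.34 (limma adjusted p = 0.429). The mean of the 8 myeloid markers ran from 5.89 to 5.94 against 5.73 to 5.79 in DMSO 48 h; their part was not tested.

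At 48 h with GGTI, 7 of the 9 genes were called, in both directions. Trib3 rose by 1.76 ± 0.0841, or 3.39-fold (limma adjusted p = 3.03e-11), and Ddit3 by 0.48 ± 0.0761 (limma adjusted p = 5.59e-05). Atf3 fell by 2.17 ± 0.243, or 4.51-fold (limma adjusted p = 1.01e-06), and Asns by 1.59 ± 0.177, or 3.01-fold (limma adjusted p = 9.63e-07). Sesn2 fell by 0.76 ± 0.145 (limma adjusted p = 0.000365), Ddit4 by 0.52 ± 0.173 (limma adjusted p = 0.021) and Atf4 by 0.52 ± 0.155 (limma adjusted p = 0.0116). The 2 rises and 5 falls stand beside 40.3% of all genes called, with 18.4% higher and 21.9% lower, and the median of the 9 differences was -0.52 beside -0.01 over all genes. Atf5 differed by 0.02 (95% interval -0.20 to 0.24) and Cebpb by -0.23 (95% interval -0.49 to 0.04).

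Some of these 7 calls were less firm. The placed probe set of Ddit3 gave 0.21 (limma adjusted p = 0.0953). The Ddit4 call was lost without the second DMSO array (limma adjusted p = 0.137) or without the first or the third GGTI array (limma adjusted p = 0.0809 and 0.103), and the Atf4 call without the second GGTI array, at -0.40 (limma adjusted p = 0.0719). Markers of other cells moved in the same comparison: Hba-a1, a haemoglobin chain, was higher by 2.06 (limma adjusted p = 4.11e-08), Cd79b of B cells by 0.84 (limma adjusted p = 0.00153) and Cd8b1 by 0.78 (limma adjusted p = 1.34e-05). The other tested members of these 3 marker lists were not called: Hbb-bt at 0.24, Alas2 at -0.06, Cd79a at 0.19 and Cd8a at -0.17 (limma adjusted p = 0.734, 0.628, 0.443 and 0.621). The mean of 3 red cell markers ran from 6.49 to 6.86 on the GGTI 48 h arrays, against 5.78 to 6.07 in DMSO 48 h and 6.68 to 7.40 at 0 h, with Hba-a1 the 1 called member of the 3. That of 5 B cell markers ran from 5.23 to 5.45 against 5.08 to 5.37 in DMSO 48 h, with 3 of 5 at background in both, and that of 8 myeloid markers from 5.87 to 5.98 against 5.73 to 5.79. For 5 CD8 and NK markers it ran from 4.97 to 5.20 against 4.76 to 5.06. Of the myeloid markers tested, Cst3 was higher by 0.29 (limma adjusted p = 0.000937). Cd68 at 0.26 and Cd74 at -0.25 were not called (limma adjusted p = 0.0687 and 0.281). The part of all these markers in the result was not tested.

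**Figure D4:**
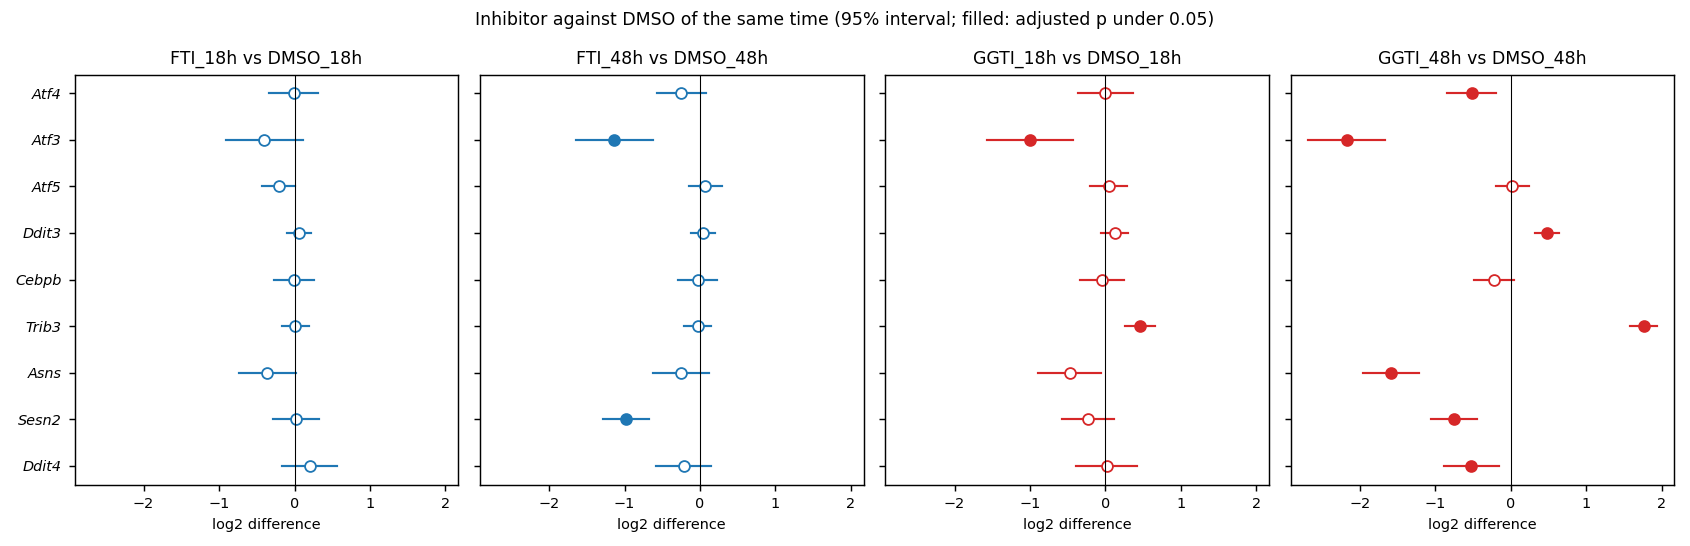
Log2 difference between each inhibitor group and DMSO of the same time for the 9 genes tested (points, 95% interval of the limma fit; filled where the adjusted p was under 0.05). FTI 18 h has 0 filled points and FTI 48 h has 2, and GGTI 48 h has 7, with Trib3 at 1.76 and Atf3 at -2.17.

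Set directly against each other, the inhibitor groups differed in a few of the genes. The compounds' doses were not given, so whether they were matched is not known. At 18 h, GGTI exceeded FTI in Trib3 by 0.44 ± 0.094 (limma adjusted p = 0.0151), the 1 gene of 9 called where 2.29% of all genes were, 1.36% higher and 0.923% lower. That call was lost without the first or the third FTI array (limma adjusted p = 0.0655 and 0.0517) or without the first or second GGTI array (limma adjusted p = 0.0687 and 0.164). At 48 h, 2 of 9 were higher with GGTI and 2 lower, where 27.5% of all genes were called, 13.6% higher and 13.9% lower. Trib3 was higher by 1.79 ± 0.0841 (limma adjusted p = 5.15e-11) and Ddit3 by 0.43 ± 0.0761 (limma adjusted p = 0.00026), though the placed Ddit3 probe set gave 0.10 (limma adjusted p = 0.473). The lower genes were Asns, at -1.34 ± 0.177 (limma adjusted p = 1.37e-05), and Atf3, at -1.04 ± 0.243 (limma adjusted p = 0.00329). Sesn2 differed by 0.22 (limma adjusted p = 0.287, 95% interval -0.08 to 0.53), and without the third GGTI array by 0.40 (limma adjusted p = 0.0389). Some markers of other cells differed here too. Hba-a1 was higher with GGTI by 2.07 (limma adjusted p = 1.02e-07), Cd8b1 higher by 0.41 (limma adjusted p = 0.00875) and Cd74 at -0.87 (limma adjusted p = 0.000929). The other tested members of these marker lists were not called. Hbb-bt was at -0.13, Alas2 at -0.09 and Cd8a at 0.17 (limma adjusted p = 0.875, 0.466 and 0.648). Cst3 was at 0.10 and Cd68 at 0.02 (limma adjusted p = 0.266 and 0.932). The part of these markers was not tested.

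Whether an inhibitor's difference from DMSO was itself another at 48 h than at 18 h was tested as an interaction. For FTI, Sesn2 alone of the 9 genes was called, with a difference of differences of -1.001 ± 0.205 (limma adjusted p = 0.0352), where 0.433% of all genes were called, 0.160% higher and 0.273% lower. The call was lost without any 1 of 9 of the 12 arrays, with adjusted p up to 0.11: the 3 arrays of DMSO 18 h (0.057, 0.0812 and 0.0681), the first and the third of DMSO 48 h (0.0789 and 0.109), the first and second of FTI 18 h (0.0919 and 0.0978), and the first and the third of FTI 48 h (0.11 and 0.0755). For GGTI, Trib3 was called at 1.31 ± 0.126 (limma adjusted p = 2.67e-06) and Asns at -1.12 ± 0.266 (limma adjusted p = 0.0111), where 9.51% of all genes were called, 4.97% higher and 4.54% lower. The Asns call was lost without the second GGTI 18 h array (limma adjusted p = 0.067). Atf3 and Ddit3 came close to the threshold, at -1.17 (limma adjusted p = 0.0514) and 0.35 (limma adjusted p = 0.0592). The placed probe set of Ddit3 did not, at 0.22 (limma adjusted p = 0.427).

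The wider pathway was described with lists of genes from general knowledge, read beside the same shares of all genes. The lists were chosen with earlier results of these data known, so their counts are a description. The list of other ATF4 targets of amino acid supply had 28 entries, of which 27 have a probe set and 25 were tested. The rise from 0 h and the difference with GGTI at 48 h share the DMSO 48 h arrays. Between 0 h and DMSO 18 h 20 of these rose and 2 fell, with a median of 0.82, and between 0 h and DMSO 48 h 22 rose and 2 fell, with a median of 0.88. Of all genes 33.7% rose and 27.2% fell in the first of these comparisons, and 38.5% and 36.2% in the second. Phgdh, the first enzyme of serine synthesis, rose by 2.71 (limma adjusted p = 9.11e-13) at 18 h and 2.76 at 48 h, and Psat1, the next enzyme of that path, by 2.15 and 2.53. With GGTI at 48 h, 18 of the 25 fell and 0 rose, with a median of -0.47, where 21.9% of all genes fell and 18.4% rose. Cth, which makes cysteine from cystathionine, fell by 1.91 (limma adjusted p = 1.23e-06), and Slc7a5, the large neutral amino acid transporter, by 0.99 (limma adjusted p = 7.77e-07). The alternatives called 18 or 19 of the 25 in that comparison. Against FTI 48 h, GGTI 48 h was lower in 14 of the 25, with Cth at -1.94 and Slc7a1 at -0.72, and higher in 1, Wars, a gene named after its values were seen; 13.9% of all genes were lower and 13.6% higher.

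At the other points the amino acid genes differed in fewer members. FTI 18 h had 0 of 25 called by limma, FTI 48 h 1 lower (Slc7a5 at -0.38, limma adjusted p = 0.0393) and GGTI 18 h 2 lower (Slc7a5 at -0.49 and Slc3a2, its heavy chain, at -0.31). Of all genes 3.30%, 7.66% and 5.94% were called in these 3 comparisons, and the alternatives called 0 to 1, 0 to 4 and 0 to 2 of the 25. The interaction of GGTI and time called 5 of the 25, all lower at 48 h, among them Cth at -1.69 and Yars, a tRNA synthetase, at -0.71; the alternatives called 2 to 9, and 9.51% of all genes were called. In the promoter windows, 5 of the 20 genes of this list that have one held the motif. Of the tested genes with a window, 3 held it and all 3 fell with GGTI at 48 h, as did 10 of the 15 that did not hold it.

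The list of other ATF4 targets of stress and growth had 13 entries, of which 8 were tested. Its members did not move one way: in GGTI 48 h 4 of 8 rose and 2 fell, with a median of 0.21, beside 18.4% and 21.9% of all genes. Ndrg1, a stress and differentiation gene that other pathways also induce, rose by 2.59 (limma adjusted p = 1.11e-11), and Vegfa, the angiogenic growth factor, fell by 1.07 (limma adjusted p = 0.000509). Ndrg1 also rose with FTI, by 0.82 at 18 h (limma adjusted p = 0.00108) and 0.75 at 48 h (limma adjusted p = 0.000254), and with GGTI at 18 h, by 1.64 (limma adjusted p = 4.25e-07). In DMSO it had fallen from 0 h, by 1.51 at 18 h and 1.93 at 48 h, while Eif4ebp1, a repressor of translation initiation, rose by 1.26 and 1.49. In the promoter windows, 5 of the 11 genes of this list that have one held the motif. Among these, Nupr1 and Herpud1 alone were tested, and both rose in GGTI 48 h, by 0.93 and 0.44.

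Upstream of ATF4, the list of eIF2alpha kinases, phosphatase subunits and eIF2 and eIF2B subunits had 13 genes, all tested. In DMSO 18 h 7 rose and 3 fell, with a median of 0.29, and in DMSO 48 h 9 rose and 3 fell, where 60.9% and 74.7% of all genes were called in either direction. Eif2b3, a subunit of the exchange factor eIF2B, rose by 3.20 (limma adjusted p = 2.89e-12) at 18 h, and Ppp1r15a, the stress-induced GADD34 subunit that removes the phosphate from eIF2alpha, fell by 2.09 (limma adjusted p = 1.49e-08). In GGTI 48 h 8 of 13 fell and 0 rose, with a median of -0.34, beside 21.9% and 18.4% of all genes, and Eif2b3 fell by 0.92 and Eif2b1 by 0.60. GGTI 18 h and FTI 48 h each called 2 of 13, all lower, with Eif2b1 among them at -0.30 and -0.32. Of all genes 5.94% and 7.66% were called in these comparisons, and the alternatives called 0 to 3 and 1 to 4 of the 13. In the promoter windows, 0 of the 11 genes of this list that have one held the motif.

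The IRE1 and ATF6 branches are the other arms of the ER stress response, and their list had 17 genes, all tested. In DMSO 18 h 12 rose and 3 fell, beside 33.7% and 27.2% of all genes, and in DMSO 48 h 13 rose and 3 fell, beside 38.5% and 36.2%. Sdf2l1, an ER chaperone cofactor, rose by 2.41 and 2.53 while Dnajb9, an IRE1 target, fell by 1.68 and fell by 1.95. In GGTI 48 h 10 of 17 fell and 1 rose, with a median of -0.33, beside 21.9% and 18.4% of all genes. Pdia6, a disulfide isomerase, fell by 0.78 (limma adjusted p = 0.000193) and Hyou1, an ER chaperone, by 0.70 (limma adjusted p = 8.25e-05). No promoter window of these genes, 0 of 14, held the motif.

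Close relatives of the 10 genes were listed too, with 16 entries, of which 15 have a probe set and 11 were tested. In GGTI 48 h 3 of 11 rose and 2 fell, a share close to the 40.3% of all genes called. Trib2, a pseudokinase of the same family as Trib3, rose by 2.39 (limma adjusted p = 2.53e-11), and Sesn1, a sestrin known as a p53 target, rose by 1.00 (limma adjusted p = 1.18e-07) where Sesn2 fell. Trib2 also rose with GGTI at 18 h, by 0.88 (limma adjusted p = 0.000415), and with FTI by 0.47 at 18 h (limma adjusted p = 0.0284) and 0.45 at 48 h (limma adjusted p = 0.017), in both of which Trib3 was not called. In the promoter windows, 1 of the 11 relatives that have one held the motif, Jdp2, which was not tested.

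**Figure D5:**
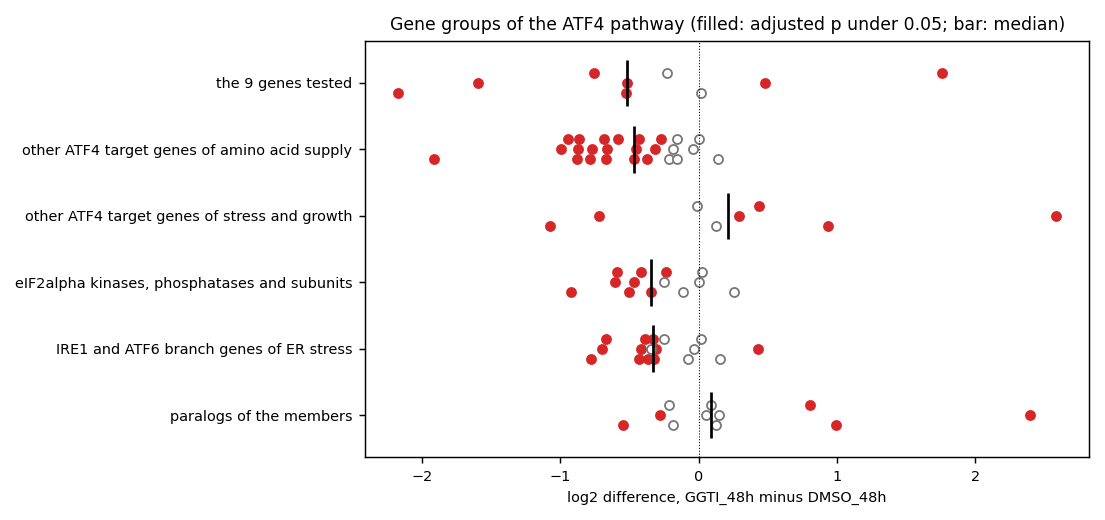
Log2 difference between GGTI 48 h and DMSO 48 h for the 9 genes tested and for 5 lists of related genes (points, 1 per gene; filled where the limma adjusted p was under 0.05; bar, median of the list). In the amino acid supply list 18 of 25 genes are lower and 0 higher, with a median of -0.47, while the stress and growth list has a median of 0.21.

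The genes with the pattern most like each of the 9 were found by Pearson's r over the 7 group means, as a description. For Trib3 these were Rom1 (r = 0.994), Tgm1 (r = 0.993) and Nhsl2 (r = 0.989), and for Asns Rbm19 (r = 0.996), Coq3 (r = 0.992) and Prpf8 (r = 0.991). For Atf3 they were Atmin (r = 0.986), Chst11 and Stk38l (r = 0.98 each), and for Sesn2 H2-T-ps (r = 0.996), Wdr45b (r = 0.985) and Kif5b (r = 0.983). Those of Ddit3 were Sag (r = 0.993), Ushbp1 (r = 0.991) and Ccdc162 (r = 0.989), and those of Ddit4 were Cfap36 (r = 0.988), Cdkl3 (r = 0.979) and Strn3 (r = 0.976). Vegfa (r = 0.979), Fyttd1 (r = 0.976) and Prr3 (r = 0.974) came nearest to Atf4. For Atf5 they were Tuba8, Olfr29-ps1 and Slco2a1, and for Cebpb Tlcd2, Vgf and Msx1. The 7 means share the arrays and their normalization, and with 12462 genes to choose from high values of r are reached by many genes.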

How the data were processed

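Per the labels' protocols, 1 to 20 ng of total RNA went through the NuGEN WTA Pico v2 and Encore Biotin kits. The authors made the log2 values with RMA in Affymetrix Expression Console 1.1, per the submitters' processing notes. The deposited table has 28846 probe sets, 22206 of them for genes, and a second deposited table differs by at most 1.8e-15, so using it as an alternative was not run. Of the gene probe sets 22202 have 1 symbol; 20452 accessions matched RefSeq (GRCm38.p6) and updated 906 symbols.

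Groups came from the treatment labels. The labels give no replicate numbers or sources, so arrays were numbered in accession order and p-values measure only the spread between arrays, which may be technical. No 2 arrays were copies, the smallest mean absolute difference being 0.149. With limma 3.58.1 in R 4.3.3, 7 group means were fitted to all 20 arrays, with 13 residual and 4.98 prior degrees of freedom and a median residual SD of 0.136, 2-sided tests, and Benjamini-Hochberg adjustment at 0.05 within each of 11 comparisons; tests between neighbours in the order of means use the same fit. The number of arrays limits the precision. The fit was tested on simulated data, whose setting and outcome are not given here.

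The 10 genes and the lists were chosen with earlier results of these data known. Named genes are the 10, the 2 largest changes among called genes of a list in each comparison described, and the 3 genes most like each of the 9 tested; other genes were named as examples, background or markers. Alternatives were the filter, 2 centrings, array weights, robust variances, other probe sets, only the groups compared, and leaving out arrays; taking the placed Ddit3 probe set and leaving out the 2 arrays of lowest weight were chosen after seeing the data. Of the red cell markers, 1 further gene outside the 3 used is not reported here.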

Additional observations from a re-analysis of the deposited data

Results flagged for a closer look

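For 3 of the genes the difference between an inhibitor and DMSO was another at 48 h than at 18 h in the limma test of the difference itself. Trib3 had a GGTI difference of 0.45 at 18 h and 1.76 at 48 h, so that the difference of differences was 1.31 (limma adjusted p = 2.67e-06), and all 3 GGTI arrays of 48 h stood above both of 18 h. The call held in every alternative run. Asns had GGTI differences of -0.47 and -1.59, a difference of differences of -1.12 (limma adjusted p = 0.0111), which did not pass without the second GGTI 18 h array (limma adjusted p = 0.067). Sesn2 had FTI differences of 0.02 and -0.98, a difference of differences of -1.001 (limma adjusted p = 0.0352), which did not pass without any 1 of 9 of the 12 arrays.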

How the results depend on the processing

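No paired analysis was possible because the labels give no replicate numbers. Of 34 called results of single genes 22 kept their call in every alternative, and of 65 uncalled ones 56 stayed uncalled; none changed direction while called. The number of the 9 genes called changed as follows. For GGTI 18 h against DMSO 18 h, 2 were called, and 1 without the filter, 1 with only the groups compared, and 0 to 1 without 1 array. For GGTI 18 h against FTI 18 h, 1 was called, and 0 with only the groups compared, 2 without the 2 arrays of lowest weight, and 0 to 1 without 1 array. For the FTI interaction 1 was called, and 0 without the filter, 0 without the 2 arrays of lowest weight, and 0 to 1 without 1 array. For the GGTI interaction 2 were called, and 4 with only the groups compared, 4 with array weights, and 1 to 2 without 1 array. Leaving out 1 array gave 4 to 5 calls for DMSO 18 h against 0 h, 6 to 7 for DMSO 48 h against 0 h, 3 to 5 between the DMSO times, 0 for FTI 18 h, 2 for FTI 48 h, 6 to 7 for GGTI 48 h against DMSO, and 4 to 5 against FTI.

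Counts over all genes moved more. FTI 18 h went from 411 to 183 without the filter, 36 with only the groups compared and 151 to 428 without 1 array. GGTI 18 h went from 740 to 443, 130 and 201 to 710. GGTI 18 h against FTI 18 h went from 285 to 69 with only the groups compared, 436 with array weights, 453 without the 2 arrays of lowest weight and 70 to 209 without 1 array. FTI 48 h went from 955 to 2124 with array weights and 524 to 769 without 1 array. The FTI interaction went from 54 to 87 with array weights, 85 with robust variances and 28 to 61 without 1 array, the GGTI interaction from 1185 to 691 to 1236, and the DMSO times from 3623 to 2280 to 3678. The cause was not tested.

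Centring on the median of the genes kept moved the median of all genes by -0.13 (DMSO 18 h against 0 h) and -0.21 (DMSO 48 h against 0 h), and centring on all probe sets by 0.11 and 0.17; without the filter the 48 h median moved by -0.11. The percentage of calls that were higher then went, under the first and second centring, from 55.3 to 43.0 and 65.8 at 18 h, from 51.5 to 38.6 and 65.1 at 48 h, and from 56.5 to 35.6 and 73.7 between the DMSO times. It went from 79.3 to 59.7 for FTI 18 h, from 59.6 to 69.9 for GGTI 18 h against FTI and from 37.0 to 51.6 for the FTI interaction under the first, and from 59.8 to 44.5 for FTI 48 h under the second. The first centring also changed calls of 5 genes: in DMSO 18 h against 0 h Atf4 passed at -0.43 (limma adjusted p = 0.0328), in DMSO 48 h against 0 h Cebpb at -0.33 (limma adjusted p = 0.0291), and between the DMSO times Atf5 passed at -0.33, Trib3 passed at -0.23, and Atf3 was lost at 0.66 (limma adjusted p = 0.0536). With array weights Cebpb passed in GGTI 48 h at -0.32 (limma adjusted p = 0.0166). With only the groups compared, Trib3 at 18 h was lost against DMSO (limma adjusted p = 0.106) and against FTI (limma adjusted p = 0.116). Atf3 passed in the GGTI interaction under 5 alternatives (limma adjusted p = 0.000545 to 0.0437). Signal close to the negative controls limits what Chac1 can show. Atf5, Cebpb and Ddit4 also had group means below the upper decile of the negative controls in every group, which limits them too. The same holds for Trib3, Atf3, Sesn2 and Asns in the groups where their means lay below it.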
